A study of Mus musculus with 20 samples.

Results

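The Robo receptors and Slit ligands are 6 genes of an axon guidance system: the receptor genes Robo1, Robo2 and Robo3 and the ligand genes Slit1, Slit2 and Slit3. They were taken by symbol, and all 6 were present among the 37994 genes of the developmental series and the 36104 genes of a second set of plates. Single cells of mouse habenula had been sequenced by Cel-seq2, a 3′ method that counts transcripts through unique molecular identifiers (UMIs), on 20 plates of 384 wells. All series plates share the reporter line Brn3a-tauLacZ, named for the gene now called Pou4f1. Its embryonic stages were E11, E13, E15 and E18 and its later ones P4, P7 and adult, each on 2 plates, while E12 had a single plate. The second set was of strain C57BL/6, all E18: the left habenula filled 2 plates, the right habenula another 2, and 1 plate was labelled as both sides. The labels do not give the number of animals behind a plate, their age in the adult group or their genotype at the reporter locus. The plate was the replicate, and p-values measure the spread between plates, which may be technical.

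Slit proteins are large secreted ligands that repel growing axons through Robo receptors. Robo1 and Robo2 are the main Slit receptors of the nervous system, whereas mammalian Robo3 binds Slits poorly, takes part in midline crossing of commissural axons and responds to other cues such as Nell2. The habenula, a paired nucleus of the dorsal diencephalon, has a medial and a lateral part and sends its axons to the interpeduncular nucleus and other midbrain targets through the fasciculus retroflexus.

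In GENCODE release M21 (GRCm38), Robo1 lies on chromosome 16 from 72308306 to 73046095 on the plus strand, and Robo2 on the same chromosome from 73891839 to 74411825 on the minus strand. Robo3 lies on chromosome 9 from 37415669 to 37433246 on the minus strand. Slit1 lies on chromosome 19 from 41600257 to 41743665 on the minus strand, Slit2 on chromosome 5 from 47983138 to 48307733 on the plus strand, and Slit3 on chromosome 11 from 35121224 to 35708507 on the plus strand. Robo3 is the compact member, with a span of 17.6 kb, against 738 kb for Robo1, 520 kb for Robo2, 143 kb for Slit1, 325 kb for Slit2 and 587 kb for Slit3. Robo3 and Slit1 overlap no other annotated gene. Robo1 overlaps 1, Robo2 7, Slit2 7 and Slit3 4 other annotated genes, such as processed pseudogenes and small RNAs. The labels and notes do not state whether counting used strand, so the levels of these 4 genes may include reads of the overlapping genes.

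The promoters of Robo2 and Robo3 are shown because these receptors changed in opposite directions. Each window runs from 250 bases before to 50 after a RefSeq start (GRCm38.p6), 5′ to 3′ on the gene's own strand. Capitals mark TAATTA, a core bound by many homeodomain proteins, searched on both strands; it reads the same on each, and none of the letters searched overlap another motif here. The Robo3 window is chr9:37433126-37433425 on the minus strand. The Robo2 window, 1 of 3 listed Robo2 starts, is chr16:74411776-74412075 on the minus strand. The other Robo2 windows, chr16:75092721-75093020 and chr16:75447244-75447543, lie outside the GENCODE bounds given above. The Robo2 span and overlaps stated there therefore cover the GENCODE gene only.
Robo3: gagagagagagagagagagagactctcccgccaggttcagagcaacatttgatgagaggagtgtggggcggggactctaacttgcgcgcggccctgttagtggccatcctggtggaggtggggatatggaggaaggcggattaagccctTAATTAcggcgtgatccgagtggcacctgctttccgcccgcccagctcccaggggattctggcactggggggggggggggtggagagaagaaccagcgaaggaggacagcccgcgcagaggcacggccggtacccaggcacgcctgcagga
Robo2: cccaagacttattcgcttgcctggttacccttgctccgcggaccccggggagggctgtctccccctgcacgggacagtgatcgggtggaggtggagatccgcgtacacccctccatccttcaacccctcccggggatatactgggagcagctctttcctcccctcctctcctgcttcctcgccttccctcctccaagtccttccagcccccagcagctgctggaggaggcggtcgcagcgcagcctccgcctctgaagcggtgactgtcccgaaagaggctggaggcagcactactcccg
TAATTA occurred 1 time in the Robo3 window and 0 times in the Robo2 window, and 5.29% of 32851 promoter windows of the same length hold it. CAGATG, an E-box of the kind bound by neurogenic basic helix-loop-helix factors, was searched in the same way. It occurred in neither window, against 17.2% of all windows. These matches describe letters only and say nothing of binding.

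Slit2 and Slit3 also host a microRNA each, shown because it is the sequence feature that both ligand genes share. Mir218-1 lies in an intron of Slit2 at chr5:48223942-48224051 and Mir218-2 in an intron of Slit3 at chr11:35616816-35616925, both on the plus strand (RefSeq, GRCm38.p6). Both hairpins give the same mature 5p product, printed with its seed (bases 2 to 8) in capitals.
mmu-miR-218-5p: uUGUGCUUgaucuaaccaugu
The mature microRNA itself was not measured by this poly-T primed method.

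Of 5756 series wells, 3729 were kept as cells, and of 1920 wells in the second set, 1082. Kept wells summed to between 758697 counts (adult replicate 1, 56 wells) and 7.76e+06 counts (P7 replicate 1) per plate. The share of kept wells with a Pou4f1 UMI, a marker of habenular neurons, ran from 28.1% to 92.2%. Plates of 1 stage could hold unlike cells: at E18 this share was 28.1% on replicate 1 and 85.5% on replicate 2, and summed progenitor markers stood at 4223 and 314 CPM (counts scaled to the plate's total). It was 71.2% and 51.1% at E13, and 37.5% and 52.6% in the adult. Wells are identified by plate and well number, the deposited list of barcodes was not used here, and no doublet caller was run.

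Robo2 and Robo3 changed in opposite directions over early development: Robo2 was highest at E11 and fell, while Robo3 was lowest at E11 and rose. Levels are CPM of the summed kept wells of a plate. Robo2 stood at 1231 and 1071 CPM on the E11 plates, 600 on the E12 plate, 173 and 97.8 on the E13 plates, 96.9 and 35.7 on the E15 plates, and 115 and 78.4 on the E18 plates. After birth the P4 plates had 52.1 and 46.5 CPM, the P7 plates 126 and 115, and the adult plates 141 and 46.5. Both E11 plates lay above every later plate, and the E12 plate lay between them and the rest. From E13 on, in the order of the means (E13, P7, E18, adult, E15, P4), neighbouring stages overlapped except P7 and E18. Robo3 stood at 20.3 and 20.2 CPM on the E11 plates, 58.8 on the E12 plate, 495 and 342 on the E13 plates, and 815 and 1072 on the E15 plates. The E18 plates had 67.9 and 441 CPM, the P4 plates 558 and 623, the P7 plates 429.6 and 423, and the adult plates 60.7 and 226. Every plate from E12 on lay above both E11 plates, and the E15 plates were the highest.

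**Figure D1:**
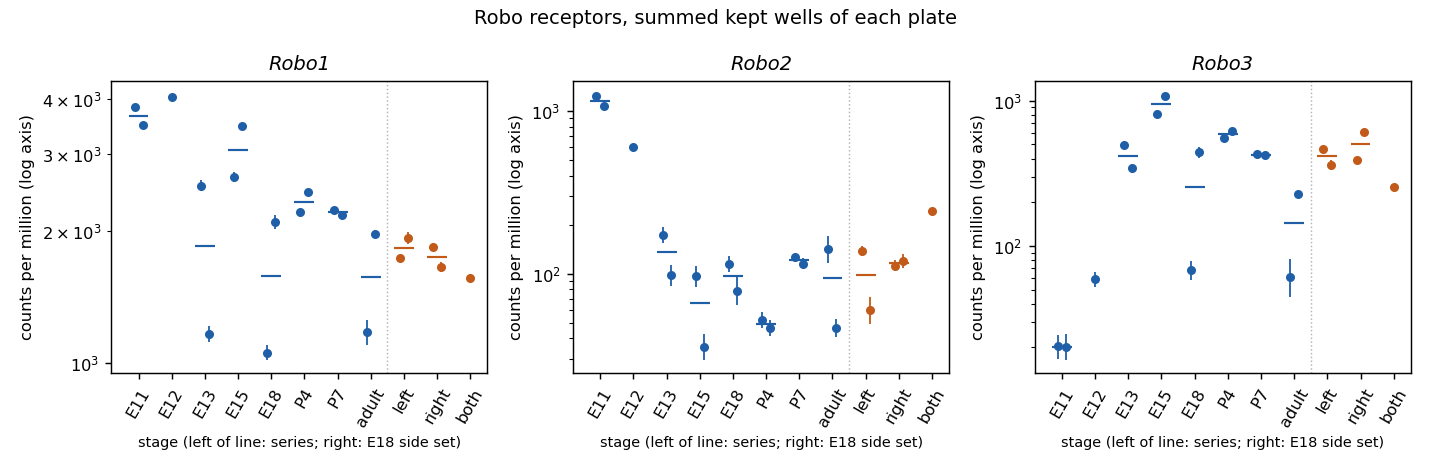
Level of each Robo gene in CPM (log axis) on every plate, by stage for the series (blue) and by side for the E18 set (orange). Points are plates with exact 95% Poisson intervals and horizontal lines are means of 2 plates. Robo2 is highest at E11 (1231 and 1071 CPM), where Robo3 is lowest (20.3 and 20.2 CPM).

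In edgeR's quasi-likelihood test over the 7 stages with 2 plates, with Benjamini-Hochberg adjustment over 17453 genes, 2 of the 6 genes passed 0.05: Robo2 (adjusted p = 0.000166) and Robo3 (adjusted p = 0.00610). The background was wide, since 46.4% of all genes tested passed, so 2 of 6 is no excess over the table. Both passed in all 23 alternatives. Robo1 (adjusted p = 0.129), Slit1 (0.223), Slit2 (0.421) and Slit3 (0.0675) did not pass in edgeR's test. The count was 4 in DESeq2, which added Robo1 and Slit3, beside 9808 of all 17453 genes. It was 6 in edgeR with no filter on low counts, beside 10151 of 37590 genes. Fits without E18 replicate 1 or without E18 replicate 2 leave that stage on 1 plate. They added Robo1 and Slit1, but more genes passed over the whole table there too, so no excess is read from them.

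From E11 to P4, Robo3 rose by 4.93 ± 0.85 on the log2 scale (estimate ± SE, 2 against 2 plates, edgeR adjusted p = 0.00210), a 30.6-fold difference. Robo2 fell by 4.48 ± 0.57 (edgeR adjusted p = 0.000388), a 22.3-fold difference. In this contrast 24.3% of genes passed, 13.2% higher and 11.1% lower, and the median change over all 17453 genes was 0.02. The other members had changes of -0.58 ± 0.46 for Robo1, -0.87 ± 0.47 for Slit1, 0.12 ± 0.42 for Slit2 and 1.04 ± 0.54 for Slit3, none past the threshold. Within wells that held a Pou4f1 UMI the changes were 4.93 ± 0.58 for Robo3 and -4.58 ± 0.46 for Robo2 (edgeR adjusted p = 8.69e-05 and 2.97e-05). Such wells made up 92.2% and 88.1% of kept wells on the E11 plates, and 92.0% and 90.4% on the P4 plates. Most of the data in this comparison are therefore shared, and the likeness of the changes cannot speak to cell mixture.

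Most of the change lay before E13. From E11 to E13, Robo3 rose by 4.23 ± 0.82 and Robo2 fell by 3.22 ± 0.54 on the log2 scale (edgeR adjusted p = 0.0321 and 0.0188), in a contrast where 1.45% of genes passed, 0.854% higher and 0.596% lower. With 3 plates in place of 4 the calls were mostly lost while the estimates stayed. The adjusted p of Robo3 became 0.270 without E11 replicate 1, 0.300 without E11 replicate 2, 0.0544 without E13 replicate 1 and 0.119 without E13 replicate 2. That of Robo2 became 0.0941, 0.0926, 0.0260 and 0.184 in the same order, so that it passed in 1 of these 4. In Pou4f1 wells alone the changes were 4.62 ± 0.57 and -3.10 ± 0.43 (edgeR adjusted p = 0.00214 and 0.00447).

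No member passed edgeR's test between any later successive stages. The share of all genes called was 0.0917% from E13 to E15, 0.195% from E15 to E18, 19.6% from E18 to P4, 0.00573% from P4 to P7 and 3.58% from P7 to the adult. DESeq2 also called 0 of 6 members in each of these 5 contrasts. At an unadjusted p under 0.05 edgeR gave 0 members from E13 to E15, 3 from E15 to E18 (Robo1, Robo3 and Slit3), 0 from E18 to P4, 1 from P4 to P7 (Robo2) and 1 from P7 to the adult (Robo3). Of all 17453 genes, 2183, 3009, 6428, 475 and 3607 were under it in the same order. The 2 contrasts that touch E18 rest on its unlike plates. Without E18 replicate 2, the estimates from E15 to E18 were -4.04 for Robo3, -2.33 for Slit1 and -1.79 for Robo1 on the log2 scale. From E18 to P4 they were 3.50, 1.75 and 1.52. In that fit E18 rests on replicate 1 alone, the progenitor-rich plate. In the Pou4f1 wells of the E18 plates Robo3 stood at 189 CPM on replicate 1 and 473 on replicate 2, against 67.9 and 441 in all wells.

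The share of cells with a transcript moved in the same way. Robo3 had a UMI in 8.81% ± 1.48 of kept wells at E11 (SD, n = 2), 82.5% ± 12.1 at E15 and 88.7% ± 0.707 at P4. With each well thinned to 3000 UMIs, to remove differences in depth, these were 3.46% ± 0.663, 71.3% ± 15.2 and 71.2% ± 0.889. Robo2 had a UMI in 89.0% ± 5.42 of wells at E11 and 32.5% ± 0.611 at P4, or 77.2% ± 4.06 and 12.4% ± 0.0674 when thinned. Thinning leaves out wells with under 3000 UMIs: it kept 301 of 309 and 331 of 345 wells on the E11 plates, 170 of 188 and 284 of 302 on the E15 plates, and 275 of 287 and 305 of 322 on the P4 plates. A plate's CPM alone cannot tell fewer cells of a type from less RNA per cell.

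Robo3 was sparse at E11, with 105 UMIs in 24 wells of replicate 1, up to 27 in a well, and 99 UMIs in 34 wells of replicate 2, up to 12 in a well. In the microglia-like wells of the series, a cell type not known for the gene, Robo3 had a UMI in 7.41% of 27 wells (median 6379 UMIs per well). Those wells come from 10 plates, and the E11 wells were deeper, at medians of 15685 and 12010 counts. How much of the E11 share of 8.81% is free RNA was not tested. Robo1 reached 63.0% of the same microglia-like wells, so its presence in non-neuronal wells is not read as expression either.

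Robo1, the broadly expressed Slit receptor, was present at every stage. The E11 plates had 3844 and 3496 CPM, the E12 plate 4051, the E13 plates 2540 and 1164, the E15 plates 2659 and 3476.5, and the E18 plates 1055 and 2095. The P4 plates had 2208 and 2452 CPM, the P7 plates 2235 and 2180, and the adult plates 1175 and 1969. In the order of the means (E12, E11, E15, P4, P7, E13, E18, adult) the first 3 stages lay apart from their neighbours, and from P4 on neighbours overlapped. The low plates of E13, E18 and the adult were those with fewer Pou4f1 wells, and in Pou4f1 wells alone E18 replicate 1 had 2015 CPM in place of 1055, next to 2161 on replicate 2. At the other 2 stages the plates also differed in Pou4f1 wells, with 2833 and 1748 CPM on the E13 plates and 1353 and 2293 on the adult plates. Counted on spliced transcripts alone, Robo1 passed in edgeR's test from E11 to P4 (-1.15 on the log2 scale, adjusted p = 0.0216), while in the total it did not.

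Among the ligands, Slit2 varied least. It stood between 262 and 769 CPM on all 15 series plates, a 2.94-fold range. The E11 plates had 632 and 526 CPM, the E12 plate 661, the E13 plates 449 and 311, the E15 plates 411 and 674, the E18 plates 769 and 372, the P4 plates 601 and 599, the P7 plates 666 and 652, and the adult plates 262 and 629. Neighbours in the order of stage means overlapped except P7 above P4. Slit1 stood at 94.1 and 82.1 CPM on the E11 plates, 65.1 on the E12 plate, 75.0 and 75.5 on the E13 plates, 78.7 and 71.6 on the E15 plates, and 17.6 and 74.6 on the E18 plates. The P4 plates had 45.0 and 46.6 CPM, the P7 plates 43.7 and 40.5, and the adult plates 51.5 and 34.2. Apart from the low E18 plate, the plates before birth lay above those after it. In Pou4f1 wells alone that plate stayed low, at 20.8 CPM (17 counts) against 79.4 on replicate 2. Between stages Slit1 did not pass with all plates and the filter on low counts. From E11 to P4 it passed in edgeR with no filter (adjusted p = 0.0475), where 4660 of 37590 genes passed. It also passed in edgeR with 4 plates only (adjusted p = 8.24e-05), where 8777 of 15048 genes passed. Among their alternatives in this contrast, Slit3 passed in 2 of 13 and Robo1 in 2 of 14. Slit3 was sparse, with 1680 UMIs in the whole series. The E11 plates had 17.6 and 14.1 CPM, the E12 plate 17.3, the E13 plates 9.66 and 17.0, the E15 plates 5.43 and 29.1, and the E18 plates 43.5 and 52.8. The P4 plates had 21.9 and 40.0 CPM, the P7 plates 44.1 and 42.9, and the adult plates 27.7 and 20.9. The lowest of these rests on 10 counts, and the 3 earliest stages lay within 9.66 to 17.6 CPM.

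**Figure D2:**
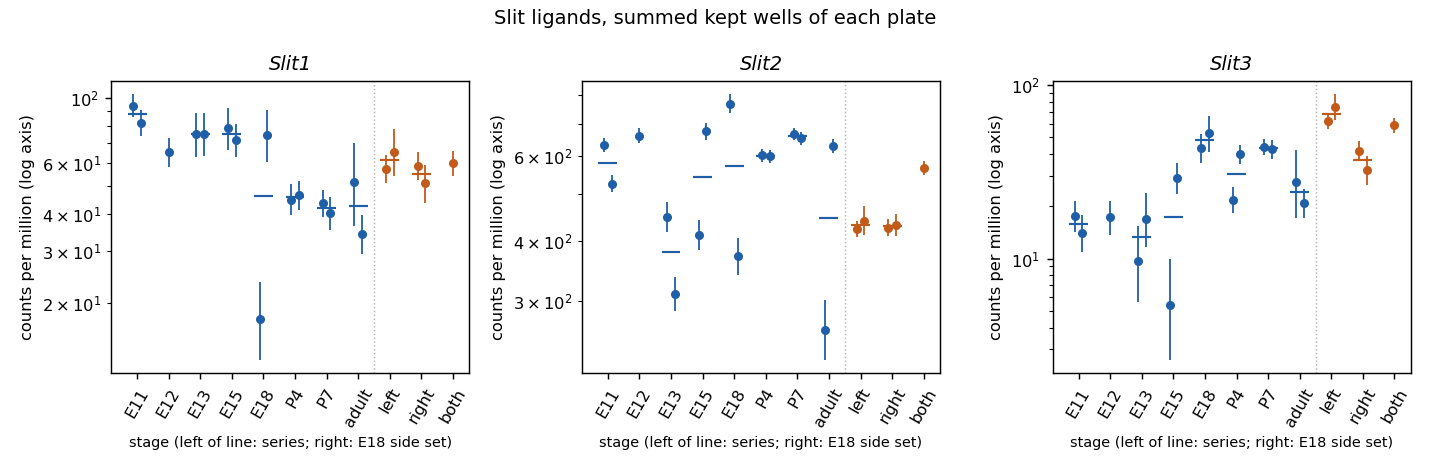
Level of each Slit gene in CPM (log axis) on every plate, drawn as in the plot of the Robo genes. Slit2 stays between 262 and 769 CPM on the series plates, and Slit3 is the one ligand whose left plates (61.9 and 75.0 CPM) lie above its right plates (41.9 and 32.3 CPM).

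Left and right habenula were compared at E18 in the second set. Robo3 stood at 469 and 359 CPM on the left plates and 390 and 613 on the right, and Robo2 at 138 and 59.5 on the left and 112 and 120 on the right. Robo1 stood at 1732 and 1931 CPM on the left and 1840 and 1659 on the right. All Robo groups overlapped between sides. Slit1 stood at 57.3 and 65.5 CPM on the left and 58.5 and 51.0 on the right, and Slit2 at 423 and 440 on the left and 426 and 431 on the right. Slit3 stood at 61.9 and 75.0 CPM on the left and 41.9 and 32.3 on the right, without overlap. The plate of both sides had 1565 CPM of Robo1, 241 of Robo2, 256 of Robo3, 59.8 of Slit1, 566 of Slit2 and 58.7 of Slit3.

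No member passed between the sides. edgeR called 0.00% of 15489 genes at an adjusted p under 0.05, and 182 genes (1.18%) at an unadjusted p under 0.05. Slit3 was the only member among these, at -0.89 ± 0.22 from left to right on the log2 scale (edgeR adjusted p = 1.00), and DESeq2 called 1 gene in all, none of them a member. The differences of the others were -0.09 ± 0.21 for Robo1, 0.17 ± 0.30 for Robo2, 0.25 ± 0.24 for Robo3, -0.17 ± 0.20 for Slit1 and -0.03 ± 0.18 for Slit2. On left replicate 2, which had 54 kept wells, 1 well held 75 of the 138 Slit3 UMIs. The fullest well held 51 of 366 on left replicate 1, 23 of 231 on right replicate 1 and 38 of 112 on right replicate 2. The left plates also held 19048 and 17221 CPM of summed erythroid markers against 3410 and 266 on the right. The part of such single wells or of erythroid RNA in the Slit3 values was not tested.

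Over clusters of wells, high Robo2 and high Robo3 fell in different cells. Clusters were made from all genes, members included, so the values are a description without a test. In the series, Robo2 was highest in the cluster of 196 wells led by Tfap2b and Pappa2, nearly all from E11, at 1838 CPM, where Robo3 was at 8.97. An intermediate progenitor-like cluster led by Lhx1 and Neurod4 had 1102 CPM of Robo2 and 44.2 of Robo3, and the E11 and E12 cluster led by Lin28a and Onecut3 had 852 and 23.1.

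Robo3 was high in clusters of later stages, of which the medial habenula-like one alone could be named. It had 1364 CPM in the 27 wells led by Gm11942 and Sertm1, of which 26 came from E13 replicate 2. It had 935 CPM in the 360 wells led by Lgals7 and Nrxn3, of which 229 came from E15 replicate 2 and 87 from E18 replicate 2. The cluster led by Dmrta1 and Shisa2 (mostly E15) had 897 CPM of Robo3, that led by Th and L3mbtl4 695, and the medial habenula-like cluster of P4 and P7 568. In these 5 clusters Robo2 ran from 28.2 CPM in the medial habenula-like wells to 110 in those led by Dmrta1. The cluster of P4 and P7 wells led by Gad1 and Pde11a had the reverse order, with 377 CPM of Robo2 and 108 of Robo3. On its plates with at least 10 wells Robo2 ran from 314 to 448 CPM. Astrocyte-like, vascular-like, ependymal-like and oligodendrocyte-like clusters had 3.44 to 82.1 CPM of Robo3.

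In the second set Robo3 stood at 1041 and 982 CPM in the medial habenula-like clusters, with Robo2 at 29.8 and 15.1. In the lateral habenula-like cluster Robo3 had 59.6 CPM and Robo2 127. The wells led by Gbx2 and Sp9, transcription factors known from the thalamus, had 17.0 CPM of Robo3 and 587 of Robo2, and those led by Tbr1 and Slc32a1 had 35.4 and 436. Of the 77 Gbx2 wells, 50 came from the plate of both sides, which also had the highest Robo2 level of the set. In the erythroid-like wells, which should lack all these genes, Robo3 had 129 CPM, Robo1 318 and Robo2 13.8, at a median of 3560 UMIs per well. Of these 34 wells 32 came from left replicate 1, so they give a background level for that plate and not for the others.

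**Figure D3:**
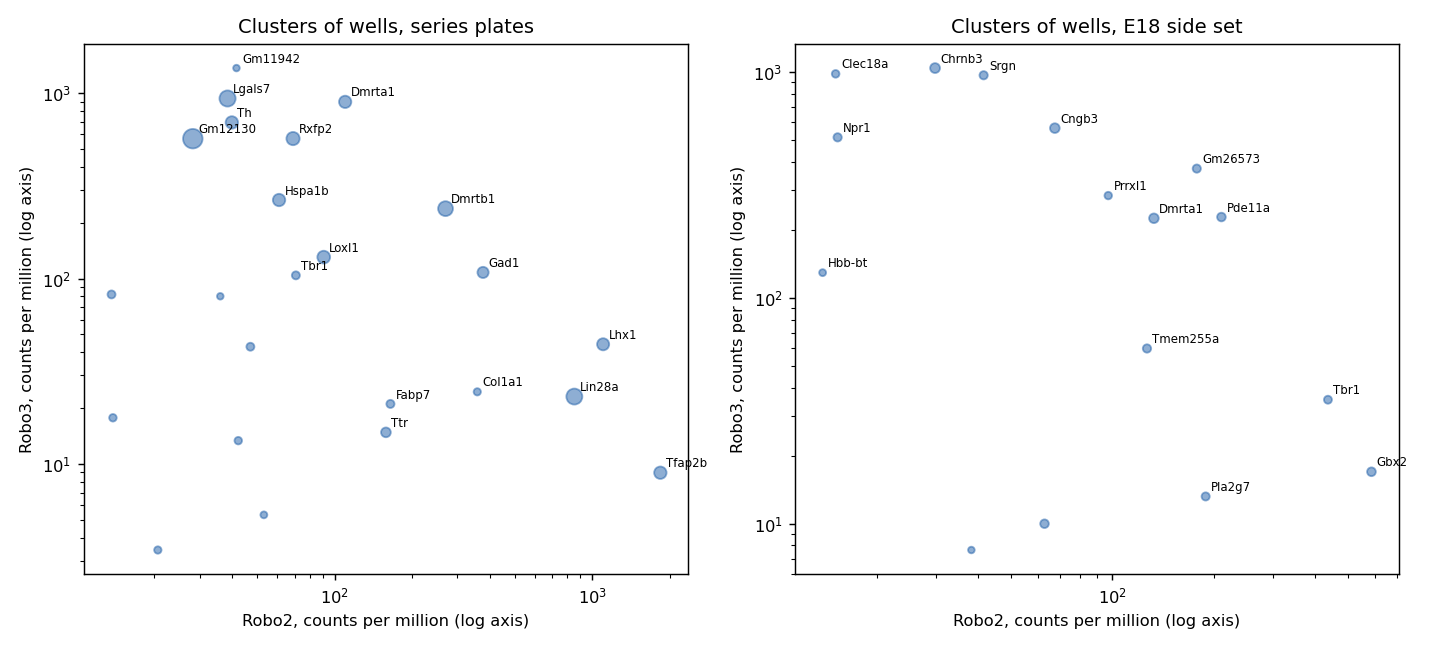
Robo2 against Robo3 in CPM (both axes log) for each cluster of wells, labelled by its first leading gene where either level is at least 100 CPM, in the series (left) and the E18 side set (right). Point size grows with the number of wells, and clusters with a 0 are not drawn. High Robo2 (1838 CPM in the Tfap2b cluster, 587 in the Gbx2 cluster) and high Robo3 (1364 CPM in the Gm11942 cluster, 1041 in the Chrnb3 cluster) fall in different corners.

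Slit2 had its own distribution. It was highest in the ependymal or choroid-like cluster (1954 CPM) and in the P4 and P7 wells led by Rxfp2 and Htr5b (1564 CPM, 1475 to 1643 over 4 plates). That cluster is unnamed, with 3 of 10 medial and 1 of 8 lateral habenula markers raised. In the second set it was highest, with 1650 CPM, in the wells led by 1500015O10Rik and 1531 in those led by Npr1 and Sema3d. In the medial habenula-like wells of the series Slit2 had 405 CPM. Slit3 in the second set was highest in the lateral habenula-like (144 CPM), Gbx2 (136 CPM) and Npr1 (131 CPM) clusters, while the medial habenula-like clusters had 6.95 and 7.11.

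Robo3 was next compared with Robo1 and Robo2 in the same wells. Wells with at least 1 Robo3 UMI were summed against the other kept wells of the same plate, on the 14 series plates with at least 10 wells of each kind; adult replicate 1 had 9 Robo3 wells and stayed out. Robo1 was higher in Robo3 wells on 13 of 14 plates, at 2805 ± 965 against 1896 ± 1095 CPM (SD, n = 14 plates). Robo2 was lower on 13 of 14 plates, at 195 ± 269 against 344 ± 395 CPM. For example, Robo2 stood at 519 against 1140 CPM on E11 replicate 2, 52.2 against 288 on E15 replicate 1, and 111 against 309 on P7 replicate 1. The other plate of each stage had a smaller gap, at 956 against 1257, 35.1 against 47.9 and 110 against 153 CPM. The exceptions were E12 for Robo1 (3871 against 4109 CPM) and P4 replicate 2 for Robo2 (47.5 against 20.1 CPM, the latter from 5 counts).

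With the plate as a block, edgeR gave a difference of 0.80 ± 0.12 on the log2 scale for Robo1 (adjusted p = 0.000308) and -0.88 ± 0.19 for Robo2 (adjusted p = 0.00378). Of 14559 genes, 19.6% passed, 8.57% higher and 11.1% lower; with DESeq2's size factors in edgeR the higher and lower calls were 833 and 1852 in place of 1247 and 1610. Slit1 (0.36 ± 0.18), Slit2 (0.23 ± 0.19) and Slit3 (0.06 ± 0.29) did not pass. Both Robo calls held in all 21 alternatives. In Pou4f1 wells alone the differences were 0.32 for Robo1 and -1.01 for Robo2, and in the second set 0.82 and -1.18 (edgeR adjusted p = 0.00514 and 4.31e-05). The Robo1 difference was thus smaller in Pou4f1 wells.

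**Figure D4:**
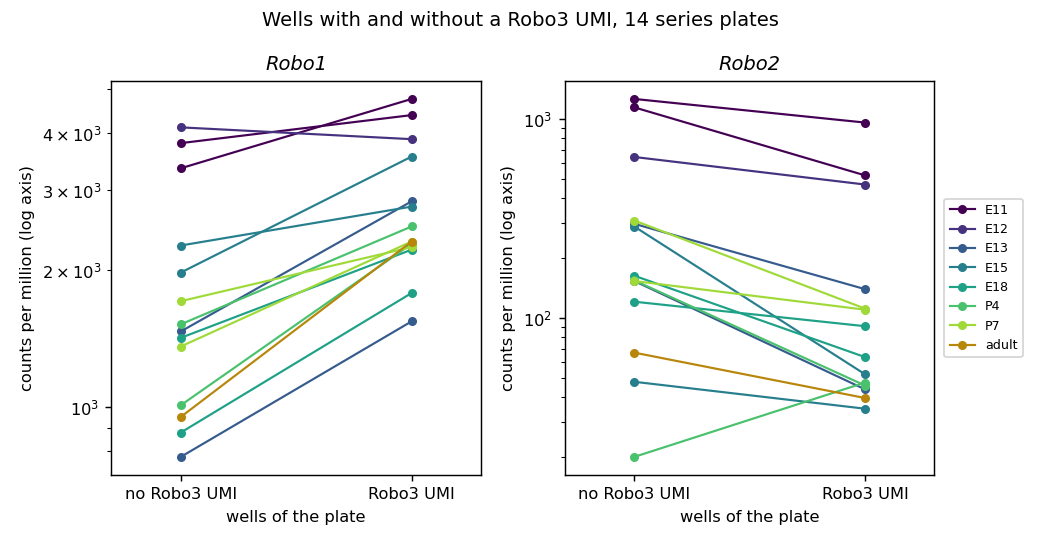
Level of Robo1 (left) and Robo2 (right) in CPM (log axis) in wells without and with a Robo3 UMI; each line is 1 of 14 series plates, coloured by stage. Robo1 is higher in Robo3 wells on 13 plates and Robo2 lower on 13.

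The wells differed in more than these genes. Medial habenula markers summed to 3679 ± 2674 CPM in Robo3 wells and 1963 ± 1809 in the others and were higher on 14 of 14 plates; 7 of the 10 markers passed upward and 1 downward. Progenitor markers summed to 678 ± 668 against 1824 ± 1043 CPM, lower on 14 of 14 plates, with 9 of 10 markers passing downward. Microglia markers were at 20.0 ± 22.2 against 308 ± 534 CPM. Neuron markers summed to 9138 ± 2920 against 7203 ± 3978 CPM, with 9 of 10 passing upward. Genes of the dissociation response, a sign of cell stress, summed to 773 ± 529 against 1746 ± 1731 CPM, higher on 1 of 14 plates, with 9 of 10 passing downward. Robo3 wells were also deeper: at P4 replicate 1 the median was 20392 UMIs in Robo3 wells and 6581 in the others. The part of these differences in the Robo1 and Robo2 results was not tested beyond the Pou4f1 and thinned wells.

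Of the genes past the threshold, 54 were higher and 76 lower on every one of the 14 plates. The 5 with the smallest p among those higher were Tesc, a calcium-binding protein (1.88 ± 0.19), Vav3, a guanine nucleotide exchange factor (1.52 ± 0.17), Chrnb4, the nicotinic receptor subunit typical of the medial habenula (2.38 ± 0.27), Atp1b1, a sodium pump subunit (0.87 ± 0.10), and Adcy8, an adenylyl cyclase (1.91 ± 0.23). The 5 lower ones were Ltbp1 (-2.34 ± 0.26), Ednrb (-2.88 ± 0.32), Apoe (-3.27 ± 0.37), Pmp22 (-3.20 ± 0.37) and the cell cycle gene Ccnd2 (-2.22 ± 0.26), several of them known from glia and progenitors. All 10 had an edgeR adjusted p of 5.13e-05 or smaller.

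Well by well, Robo2 and Robo3 met in the same well less often than independent placement would give. With each well thinned to 3000 UMIs, 218 wells held both, against 322 if the genes were independent within each plate. At E11 replicate 1, Robo2 was found in 44.4% of 9 Robo3 wells and 81.2% of the others, at E15 replicate 1 in 7.77% of 103 and 20.9%, and at P7 replicate 1 in 13.6% of 198 and 30.3%. The mean log2 odds ratio over 19 plates was -1.22 ± 0.61 (SD), below 0 on 18 plates (two-sided exact sign-flip permutation p = 7.63e-06, adjusted over 3 pairs 2.29e-05). Left replicate 2, with 45 thinned wells, was the plate above 0. The direction depended on thinning: without it the mean was 0.22 (exact permutation p = 0.356). At 5000 UMIs it was -1.08, and in Pou4f1 wells -1.29.

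Robo1 and Robo3 met more often than independent placement, with a mean log2 odds ratio of 2.48 ± 1.60 over 19 plates, above 0 on 17 of them (exact sign-flip permutation p = 1.53e-05, adjusted 2.29e-05). The 2 plates below 0 were those of E11, where all 9 and all 13 Robo3 wells held Robo1 and the sign comes from the 0.5 added to an empty cell of the table. Few wells lacked Robo1 on many plates, and the highest value, 5.47 on E15 replicate 2, rests on 4 such wells. Robo1 and Robo3 were both in 1775 thinned wells, against 1682 if independent within each plate. At 5000 UMIs the mean was 2.12 and in Pou4f1 wells 1.60, each above 0 on 15 of 19 plates. Robo1 with Robo2 gave 0.30 ± 1.33 over 20 plates, above 0 on 13 (exact sign-flip permutation p = 0.319), and here too thinning matters, since without it the mean was 1.91 (exact permutation p = 1.91e-05).

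**Figure D5:**
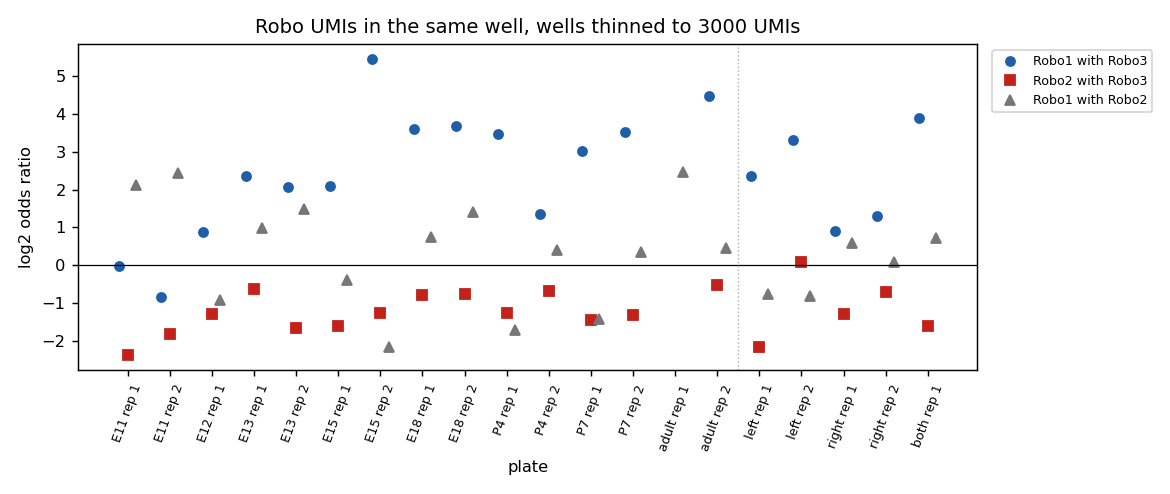
Log2 odds ratio that a well thinned to 3000 UMIs holds a UMI of both genes, by plate, for the 3 Robo pairs; the horizontal line is independence. Robo2 with Robo3 lies below it on 18 of 19 plates and Robo1 with Robo3 above it on 17 of 19.

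Most UMIs of 5 members came from unspliced transcripts. In the series, 89.5% of Robo1, 80.1% of Robo2, 76.2% of Slit1, 74.8% of Slit2 and 95.9% of Slit3 UMIs were counted as unspliced, and 3.70% of Robo3. The median over 13530 genes with at least 200 UMIs was 10.6%, and 93.4% to 97.9% of these genes lay below the 5 long members, while 31.5% lay below Robo3. The second set gave the same order of size, with 88.4% for Robo1 and 3.29% for Robo3. The fall of Robo2 and rise of Robo3 from E11 to P4 passed in edgeR's test on spliced as well as on unspliced transcripts, but for Robo3 the unspliced result rests on 3 and 2 UMIs on the E11 plates, against 83 and 96 on the P4 plates.

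Other genes of the pathway were taken from a list of 40 co-receptors, alternative ligands, signalling partners and heparan sulfate genes, of which 39 were tested; Prrg4, an adaptor known to lower surface Robo1, was too sparse. Over all stages 20 of 39 passed, beside 46.4% of all genes. From E11 to P4, 8 of 39 fell and 0 rose, beside 11.1% lower and 13.2% higher of all genes; the list's median change was -0.23 and that of all genes 0.02. The 8 with the smallest p over all stages were Dcc, Lhx2, Gpc1, Flrt3, Enah, Sdc2, Ntn1 and Rhoa. Dcc, the netrin receptor that Robo1 can silence, stood at 3684 and 3331 CPM at E11, 9999 and 5522 at E15, 1004 and 1164 at P4 and 476 and 352 in the adult. It fell by 1.62 ± 0.38 on the log2 scale from E11 to P4 (edgeR adjusted p = 0.0104). Lhx2, a transcription factor upstream of Robo genes in the thalamus, went from 236 and 269 CPM at E11 to 21.7 and 20.4 at P4 (-3.52 ± 0.50). The heparan sulfate carrier Gpc1, a Slit binding protein, fell from 72.8 and 81.9 CPM to 17.8 and 13.2 (-2.26 ± 0.26), and Enah, an actin regulator downstream of Robo, from 509 and 478 to 180 and 178 (-1.39 ± 0.20).

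Flrt3, a Robo1 co-receptor, was higher from E13 to E18 than at E11 or P4. It stood at 71.7 and 72.5 CPM at E11, 157 and 193 at E13, 404 and 140 at E15, 329 and 193 at E18, and 47.7 on both P4 plates. Sdc2, a syndecan, stood at 28.0 and 21.2 CPM at E11 and 16.1 and 13.7 at P4 (-0.66 ± 0.33, not past the threshold). Its other plates spread more, with 15.2 and 10.7 CPM at E15, 106 and 45.2 at E18, and 54.1 and 44.5 in the adult. Ntn1, the netrin ligand of Dcc, fell from 9.08 and 11.2 CPM at E11 to 1.02 and 2.15 at P4. In between, the E13 plates had 55.2 and 18.1 CPM, and after 1.80 and 1.06 on the P7 plates it stood at 27.7 and 27.8 on the adult plates. Rhoa, a small GTPase of growth cone collapse, fell by 1.26 ± 0.24. In Robo3 wells 6 of the 39 were higher, led by Lhx9 (0.83 ± 0.13) and Dcc (0.53 ± 0.13), with Usp33, Ndfip2, Abl2 and Pak1, and 4 were lower, Sdc4, Sdc2, Dag1 and Cxcr4, beside 8.57% higher and 11.1% lower of all genes. Nell2, a Robo3 ligand, passed over all stages (edgeR adjusted p = 0.0289). It stood at 337 and 294 CPM at E11, 137 and 94.1 at E13, 315 and 252 at E15, and 158 and 152 at P4. From E11 to P4 its change was -0.96 ± 0.46, not past the threshold.

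The genes most like each member over the 15 series plates were ranked by Pearson's r of log2(CPM + 1) among 17453 genes. The points share plates of the same stages and differ in depth and cell mixture, so r is a description. For Robo3 they were Nrp2, a semaphorin receptor (r = 0.92), Bcl11b (0.92), Gm26793 (0.90), Cbln2 (0.89) and Bcl11a (0.88). For Robo2 they were the retinoic acid binding gene Crabp1 (0.94) and the transcription factors Sall4 (0.93) and Pou4f2 (0.93). For Robo1 they were Xpr1 (0.95), Amer3 (0.94) and Wdfy3 (0.93), for Slit1 Gm43751 (0.95), Cep70 (0.92) and Eef1e1 (0.92), for Slit2 Slc37a4 (0.90), AA386476 (0.89) and Cep68 (0.87), and for Slit3 Wdr31 (0.86), Kat2a (0.86) and Rab12 (0.85).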

How the data were processed

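The authors deposited, per set, tables of total, spliced and unspliced transcripts per gene and well whose unit is the expected count, a UMI number corrected for UMI collisions; this was found from the values, 100% of which invert to whole UMIs within 1e-06. Trim Galore and STAR 2.5.3a and the build mm10 are named in the submitters' processing notes. Counting program and strand use: not given in the sources used here. Values were summed per plate and rounded to whole numbers. Wells were kept with at least 1000 counts outside spike-ins and mitochondrial genes, 500 genes and at most 20% mitochondrial counts. The 92 spike-in rows stayed out. Sums were tested with edgeR 4.0.16 (filterByExpr, TMM, quasi-likelihood) and, as an alternative, DESeq2 1.42.0 (R 4.3.3), at an adjusted p of 0.05. All 14 plates of the stages with 2 plates entered one fit, so the stages share 1 estimate of spread, and the E12 plate entered as a value. Clusters came from scanpy 1.11.5 (Leiden, resolution 1). A cluster was named from a marker list when at least 3 markers were 2-fold up and found in 20% of its wells and that list had more genes than any other among the cluster's top 10; otherwise its leading genes are given. Odds ratios had 0.5 added to each cell of the table. Intervals are exact, at 95%, and cover counting error only. On simulated data, edgeR recovered 73% of log2 changes of 2 from E11 to P4 among 17453 genes, 86% between sides among 15489 and 99% in Robo3 wells among 14559, and 13%, 50% and 89% of log2 changes of 1. The changed genes came from those above a floor of mean count, and simulated plates otherwise shared the same composition. The recovery rates thus do not cover sparse genes or unlike plates. Of the 37994 series gene IDs, 37938 were in GENCODE. No per-sample column was left without a sample (0). Sequencing runs held 5 plates each, per the labels' protocols; which plates shared a run is not given, so run and stage cannot be told apart. For the plate of both sides, the stage E18 was used; its title says E1. Members, lists and tests were chosen with earlier results of these data known. Named genes followed a rule: the 3 genes most like each member (5 for Robo3), the 5 smallest p per direction in Robo3 wells with 1 direction on every plate, and the 8 pathway genes with the smallest p; Nell2, Prrg4 and the Robo3-well pathway genes were named after their values were seen. Other settings are given at the end.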

Additional observations from a re-analysis of the deposited data

Results flagged for a closer look

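Wells that were left out as too shallow or damaged still held transcripts of the 6 genes. Of the 2865 wells left out over both sets, 23.2% held a Robo1 UMI, 2.90% a Robo2 UMI, 6.07% a Robo3 UMI, 0.698% a Slit1 UMI, 7.85% a Slit2 UMI and 0.733% a Slit3 UMI. These wells enter no comparison of the report, and their shares were not tested against control wells. Free RNA and damaged cells cannot be told apart in these wells.

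Same-well log2 odds ratios of pairs with Robo1 lay on opposite sides of 0 in different stages; these differences were not tested, and some signs come from the 0.5 added to each cell of the table. Robo1 with Robo3, in wells thinned to 3000 UMIs, was at -0.83 and -0.016 on the E11 plates and above 0 on the 17 other plates measured. At E11 all 9 and all 13 Robo3 wells held Robo1, so the 2 negative signs come from the added 0.5 and show no avoidance. The lowest and highest values were 2.08 and 2.38 at E13, 2.10 and 5.47 at E15, 3.6 and 3.70 at E18, 1.36 and 3.47 at P4, and 3.02 and 3.54 at P7. In the second set they were 2.37 and 3.32 on the left plates and 0.92 and 1.31 on the right plates.

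Robo1 with Robo2 was above 0 at E11 (2.13 and 2.43), E13 (0.98 and 1.49), E18 (0.76 and 1.42) and in the adult (0.46 and 2.46), and below 0 at E12 (-0.91, 1 plate) and E15 (-2.17 and -0.40). The 2 plates differed in sign at P4 (-1.73 and 0.40) and P7 (-1.43 and 0.34). The E15 value of -0.40 also comes from the added 0.5, since 21 wells held both genes against 20.96 if independent. Robo1 with Robo2 was below 0 on the left plates (-0.82 and -0.77) and above 0 on the right plates (0.10 and 0.59). These values also rest on few wells, and no difference between the sides is read from them. Left replicate 2 had 45 thinned wells, 40 with Robo1 and 7 with Robo2. Thinned wells with Robo1 made up 90.2% and 88.9% on the left plates and 91.6% and 89.9% on the right. Robo1 was in 95.3% and 98.2% of thinned wells at E11, 97.5% at E12, 95.3% and 98.6% at E15, 97.5% and 98.7% at P4, and 95.9% and 95.3% at P7, so few wells without it enter the odds at these stages.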

How the results depend on the processing

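Robo2 and Robo3 passed over all stages and from E11 to P4 in every alternative tried, and Robo1 and Robo2 in Robo3 wells likewise. The number of members called over all stages rose from 2 to 6 with no filter on low counts and 4 with DESeq2, and was 2 to 4 with 1 plate left out; from E11 to P4 it rose from 2 to 4 with no filter and 5 with 4 plates only, and stayed at 2 with 1 plate left out. From E11 to E13 it fell from 2 to between 0 and 1 with 1 plate left out. With no filter, 1 member was called from E13 to E15, 3 from E15 to E18, 2 from E18 to P4, 1 from P4 to P7 and 1 from P7 to the adult, against 0; 4 plates only gave 2 from P4 to P7; leaving out 1 plate gave 0 to 3 for E15 to E18 and for E18 to P4. Genes called over the whole table moved more. With 1 plate left out they ran from 28 to 482 (E11 to E13, main 253), 1 to 81 (E13 to E15, main 16), 4 to 2100 (E15 to E18, main 34), 574 to 5695 (E18 to P4, main 3421), 0 (P4 to P7, main 1), 27 to 1074 (P7 to adult, main 625), 1535 to 1875 (E11 to P4, main 4244), 18 to 39 (left to right, main 0) and 1834 to 3546 (Robo3 wells, main 2857; 1834 without adult replicate 2 and 1845 without P7 replicate 1). No filter tested 37590 genes in the series, against 17453 in the main fit. It gave 1715 (E11 to E13), 1249 (E13 to E15), 1461 (E15 to E18), 136 (P4 to P7) and 1766 (P7 to adult). It also gave 10151 over all stages, 4820 (E18 to P4), 4660 (E11 to P4) and 37 of 34917 left to right. DESeq2 gave 951 of 15084 (E11 to E13), 445 of 15422 (E13 to E15) and 670 of 14746 (E15 to E18). It gave 22 of 15084 (P4 to P7), 1411 of 17114 (P7 to adult) and 1 of 15489 left to right. Fits on 4 plates only gave 0 of 12219 (E13 to E15), 0 of 12797 (E15 to E18) and 528 of 14765 (E18 to P4). They gave 541 of 14871 (P4 to P7) and 8777 of 15048 (E11 to P4). Spliced transcripts gave 4 (E13 to E15) and 4 (E15 to E18) of 15847 genes. Unspliced transcripts, an alternative chosen after seeing the data, had 9947 genes tested. They gave 2905 over all stages, 1 (E13 to E15), 893 (E18 to P4), 0 (P4 to P7), 91 (P7 to adult) and 1608 (E11 to P4). Robo3 wells gave 394 of 12299 genes in Pou4f1 wells and 1272 of 9774 when thinned. The cause was not tested, except that fewer plates or wells were fitted where the setting says so.

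Labels do not say that shared replicate numbers pair the plates, and same-numbered series plates had correlations of deviations from -0.47 to 0.42; left and right replicate 1 had 0.27. With a replicate block the members called stayed as in the fit without it, at 2 over all stages, from E11 to E13 and from E11 to P4 and 0 elsewhere, while genes called were 4 (E13 to E15), 16 (E15 to E18) and 6 left to right. The sign of uncalled left-right differences was not stable. Robo1 turned to 0.014 in spliced and 0.11 in unspliced transcripts, Robo2 to -0.075 in spliced, Robo3 to -0.11 in unspliced, Slit1 to 0.11 in unspliced, and Slit2 to 0.00078 with no filter and 0.19 in unspliced. With 1 plate left out, Robo1 ran from -0.18 to 0.0083 (above 0 without left replicate 2 and without right replicate 2) and Robo2 from -0.26 to 0.95 (below 0 without left replicate 2). Robo3 ran from -0.086 to 0.53 (below 0 without right replicate 2) and Slit2 from -0.050 to 0.010 (above 0 without left replicate 2). Without thinning the Robo2 with Robo3 odds ratio was 0.22 and the Robo1 with Robo2 one 1.91 (both log2). Depth limits Slit3 and Slit1 most, which had 1680 and 3350 UMIs in the series.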
